A study of Mus musculus with 4 samples.

Results

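Keratins are the intermediate filament proteins of epithelial cells, and 10 of them that mark basal, hillock or luminal cells of the airway were read in RNA sequencing of sorted mouse airway epithelial cells. They were taken by gene symbol, 10 of the 25124 symbols listed, and all 10 had a row of values. The set of 6 basal and hillock keratins held Krt4, Krt5, Krt13, Krt14, Krt15 and Krt17, and the set of 4 simple keratins held Krt7, Krt8, Krt18 and Krt19. The groups were 2 samples from mice sensitised with house dust mite (HDM) and given a drug against SCD1 (stearoyl-CoA desaturase 1, which puts a double bond into saturated fatty acids), and 2 samples from mice given HDM and the vehicle dimethyl sulfoxide (DMSO). All were wild-type C57BL/6 mice and all had received HDM, an allergen that provokes airway inflammation. The sources used here give neither the name, dose and timing of the inhibitor nor the ages of the mice or the antibodies of the sort. Nothing in the labels says that the samples came from separate animals, so p values measure the spread between these samples alone.

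A keratin filament is built from pairs of a type I and a type II chain, and each kind of epithelial cell is known for the pair it makes. Basal cells, the stem cells that sit on the basement membrane of the airway, are known for the type II chain Krt5 with the type I chains Krt14, Krt15 and Krt17. Hillock cells, a squamous-like population of the mouse trachea, are known for Krt4 and Krt13. The simple keratins, the type II chains Krt7 and Krt8 and the type I chains Krt18 and Krt19, fill the luminal secretory and ciliated cells and the alveolar lining.

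The inhibitor libraries held 27013663 and 24591122 reads assigned to genes and the DMSO libraries 26766159 and 25908728. Values are these reads divided by 1 size factor per library, called normalised reads below. The epithelial label held in all 4 libraries, with 6275 and 6732 normalised reads of the adhesion gene Epcam in the inhibitor libraries and 5026 and 6466 in the DMSO libraries. Cells of the alveoli were also present, since the alveolar type 2 gene Sftpc had 100831 or more normalised reads in every library. The 10 keratins together took 0.20% and 0.217% of the normalised reads in the inhibitor libraries and 0.221% and 0.206% in the DMSO libraries.

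The simple keratins were the abundant ones. Divided by the length of the longest coding transcript, Krt8 stood first with 12352 ± 533 normalised reads per kilobase (kb) in the inhibitor libraries and 11121 ± 462 in the DMSO libraries (mean ± SD, n = 2 each). Krt19 followed with 7548 ± 847 per kb in the inhibitor and 8895 ± 23.5 in the DMSO libraries, and Krt18 with 7962 ± 512 and 7028 ± 1190 per kb. Krt8 lay above Krt19 in all 4 libraries, while the ranges of Krt19 and Krt18 overlapped. Krt7 was the lowest of the simple keratins, at 1159 ± 107 per kb in the inhibitor libraries and 1365 ± 46.3 in the DMSO libraries. The basal chains Krt15 and Krt5 came next, and the range of Krt15 over the 4 libraries, 239 to 1480 per kb, overlapped with that of Krt7 and with that of Krt5, 120 to 636 per kb. Krt17, Krt4, Krt13 and Krt14 were lower still, with means over the 4 libraries of 67.6, 59.1, 8.21 and 0.875 per kb, and neighbours in this order overlapped. The length of Krt7 is that of its 4094-base transcript, so its level per kb would be higher if a shorter transcript carried the reads.

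**Figure D1:**
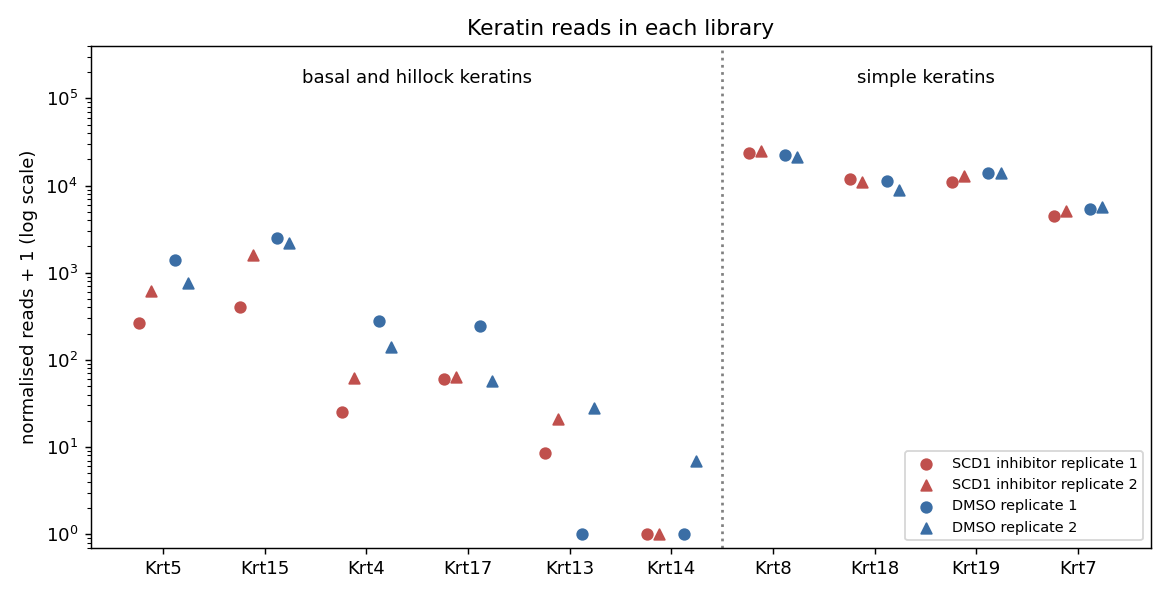
Normalised reads plus 1 on a log axis for the 10 keratins in each library, with inhibitor libraries in red and DMSO libraries in blue (circles replicate 1, triangles replicate 2). Krt5, Krt15 and Krt4 are lower in both inhibitor libraries than in both DMSO libraries, and the simple keratins differ little.

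Krt5, Krt15 and Krt4 had fewer reads in both inhibitor libraries than in either DMSO library, and none of them passed the test over all genes. Of the 10 keratins, 0 passed limma's test at a Benjamini-Hochberg adjusted p under 0.05, against 1.79% of the 13810 genes tested (247 genes, with 1.36% higher and 0.427% lower). In edgeR 0 passed, against 0.304% of genes, and in DESeq2 1 passed, Krt5, against 3.97% of genes. At an unadjusted p under 0.05 the count was 4 keratins (Krt4, Krt5, Krt15 and Krt19), against 14.1% of all genes tested, and all 4 were lower, against 5.92%. With 1 library left out the share of all genes called was 0.391% without inhibitor replicate 1, 0.296% without inhibitor replicate 2, 6.23% without DMSO replicate 1 and 2.6% without DMSO replicate 2. Krt13 and Krt14 lay below the floor of 25.8 normalised reads, the value of 1 CPM (a read count scaled by its library total), and were not tested. Folds are on the scale of log2(value + 25.8), which makes those of low genes smaller, and an exact permutation test of a single gene with 2 samples against 2 could not go below p = 0.333.

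Krt5 is the type II keratin that defines airway basal cells (ENSMUSG00000061527.7, chromosome 15, 101707070 to 101712898, minus strand, mm10, 9 exons). It had 264 and 609 normalised reads in the inhibitor libraries, against 1398 and 759 in the DMSO libraries. The groups did not overlap, with inhibitor replicate 1 the lowest library and DMSO replicate 1 the highest. The replicates differed by -1.13 in the inhibitor pair and 0.86 in the DMSO pair on the log2 scale (replicate 1 minus replicate 2). The log2 fold change was -1.30 ± 0.36 (SE), 2.46-fold lower, with a 95% interval of -2.07 to -0.53 (limma adjusted p = 0.0972). The value was -0.73 without inhibitor replicate 1 (adjusted p = 0.604) and -0.87 without DMSO replicate 1 (adjusted p = 0.184). Krt5 passed without inhibitor replicate 2 (-1.87, adjusted p = 0.0488), without DMSO replicate 2 (-1.73, adjusted p = 0.0139) and in DESeq2 on the recovered reads (-1.31, adjusted p = 0.0288), and not in edgeR (-1.31, adjusted p = 0.211).

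The start region of Krt5 is shown with that of Krt7, a simple keratin of the same type II cluster on chromosome 15, because the values of these 2 genes differed in how far they lay below those of DMSO. Both are the 250 bases before the RefSeq start, from RefSeq with the build GRCm38.p6, 5′ to 3′ on the strand of the gene, at chr15:101712906-101713155 (minus strand) for Krt5 and chr15:101412153-101412402 (plus strand) for Krt7. Capitals mark ATAAANG, a form of the TATA box searched on the coding strand in the last 50 bases, and GGGCGG, the core of a GC box searched on both strands.
Krt5: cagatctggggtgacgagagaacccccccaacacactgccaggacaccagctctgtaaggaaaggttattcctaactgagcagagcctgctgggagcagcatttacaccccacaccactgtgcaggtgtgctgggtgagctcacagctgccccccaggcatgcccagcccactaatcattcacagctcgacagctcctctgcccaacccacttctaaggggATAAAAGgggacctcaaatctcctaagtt
Krt7: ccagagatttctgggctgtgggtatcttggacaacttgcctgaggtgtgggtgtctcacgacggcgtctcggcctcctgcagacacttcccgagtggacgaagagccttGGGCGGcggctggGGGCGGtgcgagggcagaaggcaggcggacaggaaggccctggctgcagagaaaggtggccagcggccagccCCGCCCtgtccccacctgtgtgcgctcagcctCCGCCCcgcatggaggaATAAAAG

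Both windows held 1 ATAAANG in the last 50 bases, where 2.20% of 32851 RefSeq promoter windows held at least 1. It began 29 bases before the annotated start of Krt5 and 7 bases before that of Krt7. The Krt7 window held 4 GGGCGG and the Krt5 window 0, against 32.7% of all windows with at least 1. Neither held TGANTCA, the AP-1 motif searched on both strands, which 6.75% of all windows held. Of the 10 keratins, 6 had an entry in the table of promoters, and Krt4, Krt15, Krt17 and Krt19 were not matched. Of the other entries, a window of Krt13 held ATAAANG and both its windows held TGANTCA, and those of Krt8, Krt14 and Krt18 held none of the 3 motifs. A match describes the letters of these windows and is not a measured site.

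Krt15, a type I chain that basal cells make beside Krt5, was the most abundant basal keratin (ENSMUSG00000054146.8, chromosome 11, 100131758 to 100135928, minus strand, 8 exons). It had 407 and 1588 normalised reads in the inhibitor libraries, against 2517 and 2162 in the DMSO libraries. Both inhibitor libraries lay below both DMSO libraries, and inhibitor replicate 1 had the lowest value by far. The log2 fold change was -1.50 ± 0.41 (SE), 2.82-fold lower (limma adjusted p = 0.0921, 95% interval -2.37 to -0.62). The gap between the inhibitor replicates, -1.90 on the log2 scale, was larger than the fold change itself, and 0.442% of all genes tested had a larger gap in this pair. The value was -0.55 without inhibitor replicate 1, -2.45 without inhibitor replicate 2, -1.39 without DMSO replicate 1 and -1.60 without DMSO replicate 2. Whether it passed depended on the library left out. Krt15 did not pass in edgeR (-1.23, adjusted p = 0.313) or in DESeq2 on the recovered reads (-1.23, adjusted p = 0.529).

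Krt14, the usual type I partner of Krt5 in stratified epithelia, was almost absent from the reads. It had 0 and 0 normalised reads in the inhibitor libraries and 0 and 5.95 in the DMSO libraries, where a count of 0 allows up to 3 reads, or 2.87 to 3.15 normalised reads. No fold is given for it. Krt17, a type I chain of basal cells that is known to be induced in stressed epithelium, had 59.2 and 61.9 normalised reads in the inhibitor libraries and 242 and 56.5 in the DMSO libraries. A single library, DMSO replicate 1, was high, and the groups overlapped. Its log2 fold change of -0.78 ± 0.59 (SE, limma adjusted p = 0.606) was 0.070 without DMSO replicate 1 and -0.76 without inhibitor replicate 1.

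The hillock keratins were low in all libraries. Krt4, a type II chain of squamous mucosa (ENSMUSG00000059668.6, chromosome 15, 101918535 to 101924735, minus strand), had 23.9 and 60.8 normalised reads in the inhibitor libraries, against 279 and 141 in the DMSO libraries. The groups did not overlap, and the log2 fold change of Krt4 was -1.78 ± 0.52 (SE), 3.43-fold lower (limma adjusted p = 0.124, 95% interval -2.91 to -0.65). It was -1.08 with a pseudocount 4 times as large and -2.31 in edgeR, so its place beside Krt5 and Krt15 depended on the scale. In inhibitor replicate 1 this rested on 25 reads, with an exact Poisson 95% interval of 16.2 to 36.9 reads that covers counting error only. The value was -1.38 without inhibitor replicate 1 and ran from -2.21 to -1.34 when any 1 library was left out, and it did not pass in any of these 4 fits. Krt13, the type I partner of Krt4, had 7.64 and 19.9 normalised reads in the inhibitor libraries and 0 and 26.8 in the DMSO libraries. These values overlapped and lay at the level of 8 to 27 reads in the libraries that had any.

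The simple keratins of luminal cells differed by much less. Krt8, the main type II chain (ENSMUSG00000049382.10, chromosome 15, 101996698 to 102004482, minus strand), had 23449 and 24924 normalised reads in the inhibitor libraries, against 22415 and 21135 in the DMSO libraries. It was the 1 keratin of the 10 with both inhibitor values above both DMSO values, with a log2 fold change of 0.15 ± 0.10 (SE, limma adjusted p = 0.567, 95% interval -0.072 to 0.37). Krt18, the type I chain that pairs with Krt8, had 11961 and 10920 normalised reads in the inhibitor libraries and 11308 and 8890 in the DMSO libraries. Its groups overlapped, and its log2 fold change was 0.19 ± 0.13 (SE, limma adjusted p = 0.555, 95% interval -0.084 to 0.46). Krt8 and Krt18 thus had the same sign and neither passed.

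Krt19, the smallest type I chain, had 10952 and 12839 normalised reads in the inhibitor libraries, against 13992 and 14044 in the DMSO libraries. Its log2 fold change was -0.24 ± 0.11 (SE, limma adjusted p = 0.355, 95% interval -0.48 to -0.00014). Krt7, a type II chain of ducts and of the alveolar lining, had 4434 and 5053 normalised reads in the inhibitor libraries, against 5452 and 5720 in the DMSO libraries, with a log2 fold change of -0.24 ± 0.12 (SE, limma adjusted p = 0.406, 95% interval -0.50 to 0.022). In both genes the groups did not overlap and the lower inhibitor value was that of replicate 1. Without inhibitor replicate 1 the values were 0.20 for Krt8, 0.12 for Krt18, -0.13 for Krt19 and -0.14 for Krt7. None of the 4 simple keratins passed without any 1 library, in edgeR or in DESeq2.

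**Figure D2:**
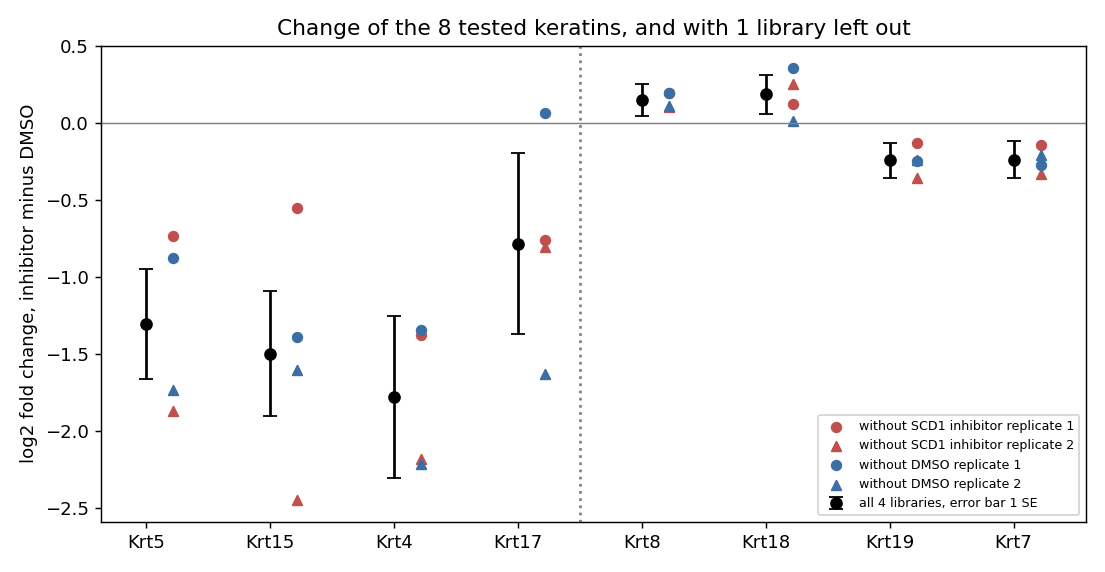
Log2 fold change, inhibitor minus DMSO, of the 8 tested keratins with all 4 libraries (black, error bars 1 SE) and with 1 library left out (red and blue symbols for the library removed). The basal and hillock keratins on the left lie between -1.78 and -0.78 and move with the library removed, and the simple keratins on the right lie between -0.24 and 0.19.

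Set against each other, the basal and hillock keratins had a median log2 fold change of -1.04 over all 6 members and the simple keratins of -0.043 over all 4, beside 0.0056 over all genes tested. The first median takes in Krt13 and Krt14, which lay below the floor and are given no direction. Krt4, Krt5, Krt15 and Krt17 were negative, as were 49.3% of all genes tested, and 3 of the 6 basal and hillock keratins had both inhibitor values below both DMSO values. Of the 4 simple keratins, 2 were negative, and these 2 had both inhibitor values below both DMSO values. Over all genes tested, 22.2% lay wholly below and 22.7% wholly above, or 44.9% in either direction, and of the 8 tested keratins 5 lay below and 1 above. The median of the basal and hillock set was -0.64 without inhibitor replicate 1 and -1.62 without DMSO replicate 2.

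Summed per kb, the basal and hillock keratins gave 414 and 1292 normalised reads per kb in the inhibitor libraries, against 2403 and 1740 in the DMSO libraries. The simple keratins gave 28332 and 29709 per kb in the inhibitor libraries and 29527 and 27289 in the DMSO libraries. The basal and hillock share of the 10 keratins was therefore 1.44% and 4.17% in the inhibitor libraries, against 7.53% and 5.99% in the DMSO libraries, with no overlap of the groups for the share and with overlap for the simple sum. Krt15 and Krt5 made up 86.9% and 93.8% of the basal and hillock sum in the inhibitor libraries and 88.1% and 93.0% in the DMSO libraries. In bulk samples, fewer basal cells and less keratin RNA per basal cell cannot be told apart.

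**Figure D3:**
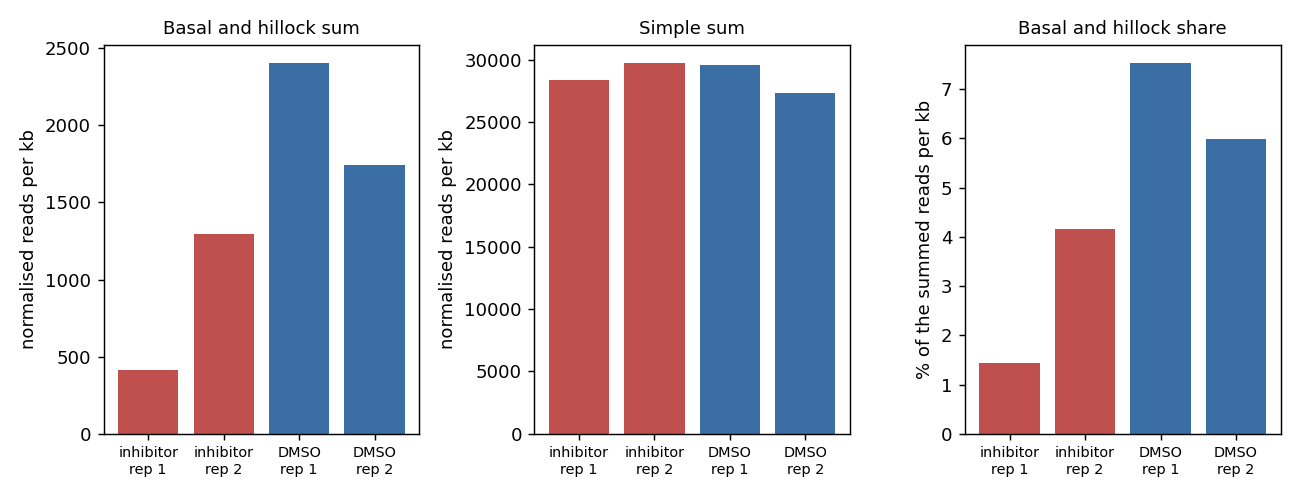
Summed normalised reads per kb of the 6 basal and hillock keratins (left), of the 4 simple keratins (middle) and the share of the first in both (right, percent) in each library, inhibitor in red and DMSO in blue. The share is 1.44% and 4.17% in the inhibitor libraries and 7.53% and 5.99% in the DMSO libraries, while the simple sums stay between 27289 and 29709.

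Since filaments need both chain types, the types were also summed. The 4 type II chains gave 0.848 and 0.853 times the reads per kb of the 6 type I chains in the inhibitor libraries, against 0.737 and 0.767 times in the DMSO libraries, with no overlap. The ratio of Krt8 to Krt18 per kb was 1.44 and 1.68 in the inhibitor libraries and 1.45 and 1.74 in the DMSO libraries, with overlap. That of Krt8 to Krt18 and Krt19 together was 0.784 and 0.808 in the inhibitor libraries, against 0.684 and 0.715 in the DMSO libraries. Within basal chains, Krt5 had 0.501 and 0.297 times the reads per kb of Krt15 in the inhibitor libraries and 0.430 and 0.272 times in the DMSO libraries. Krt5 and Krt15 thus stood in overlapping ratios in both groups.

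Keratin genes share sequence, and the sources used here do not give how reads with several matches were counted. Of the 50-base stretches of the longest coding transcript, 29.7% of Krt8 also occurred in transcripts of other genes in GENCODE M21, mostly the pseudogene Krt8-ps (26.9%). The share was 14.4% for Krt14, mostly with Krt16, and 12.2% for Krt5, mostly with Krt6a. Krt6a had 0 reads in all 4 libraries, and Krt16 had 24.4 normalised reads in DMSO replicate 1 and 0 in the others. The share was 4.0% for Krt17 and below 1% for Krt7, Krt15 and Krt18, and Krt4, Krt13 and Krt19 shared none. An annotated gene on the opposite strand overlapped Krt5, Krt7 and Krt8, and whether counting used strand is not given either.

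Other basal cell genes were read from a list of 12 that holds no keratin. Of its 10 tested genes, 9 were negative, against 49.3% of all genes tested. In limma's test over all genes 1 passed as lower, against 0.427%. The median log2 fold change was -0.48, and the negative genes included Trp63 and Dlk2, at -0.026 and -0.038. Cyp2a5, a cytochrome P450, was the 1 that fell, at 2016 and 2020 normalised reads in the inhibitor libraries, against 3398 and 3327 in the DMSO libraries (-0.73 ± 0.13, SE, limma adjusted p = 0.0173). Its inhibitor replicates differed by -0.0030 on the log2 scale, where those of Krt5 differed by -1.13. Which cells the Cyp2a5 reads came from was not tested. The water channel Aqp3 had 140 and 430 normalised reads in the inhibitor libraries, against 992 and 640 in the DMSO libraries (-1.58 ± 0.41, SE, limma adjusted p = 0.0752). Trp63, the transcription factor that defines basal cells, did not follow this order, with 90.8 and 362 normalised reads in the inhibitor libraries and 219 and 166 in the DMSO libraries. Its log2 fold change was -0.026 ± 0.51 (SE, limma adjusted p = 0.989), and its lowest value was in inhibitor replicate 1 and its highest in inhibitor replicate 2.

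Inhibitor replicate 1 was the lower of its pair in most of these genes. It lay below inhibitor replicate 2 in 8 of the 10 tested basal genes and in Krt4, Krt5, Krt15 and Krt17, where 50.9% of all genes tested did so. The median gap in the basal list was -0.30 on the log2 scale. The goblet cell markers had the same order in 9 of 10 genes, with a median gap of -0.52. Ciliated cell markers had it in 8 of 10 genes (median gap -0.018) and the tested hillock genes in 6 of 6 (-0.21). Club cell markers ran mostly the other way, with this order in 2 of 10 genes (0.33), as did alveolar type 2 markers with 1 of 10 (0.25). The fit of each tested keratin without this library stands with its values above.

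**Figure D4:**
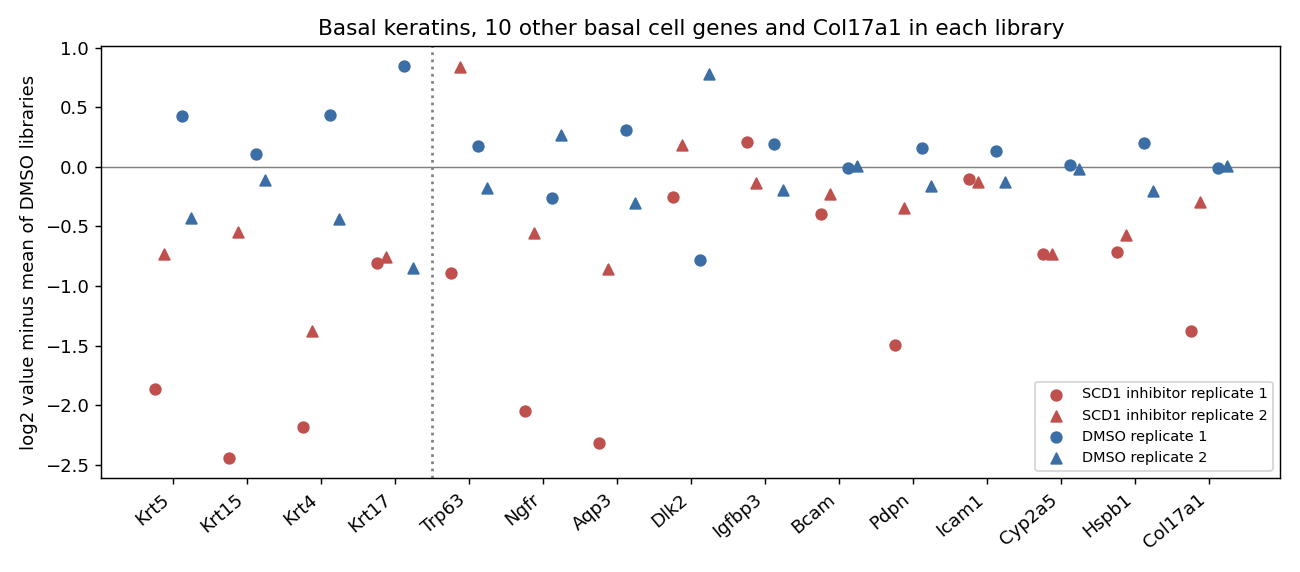
Log2 values of the 4 tested basal and hillock keratins, the 10 tested genes of the basal cell list and Col17a1 in each library, less the mean of the DMSO libraries of that gene (inhibitor red, DMSO blue, circles replicate 1, triangles replicate 2). Inhibitor replicate 1 is the lowest library in Krt5, Krt15, Krt4 and Aqp3, and Trp63 has its highest value in inhibitor replicate 2. Col17a1 has the most negative fold change of the 10 hemidesmosome genes, whose median is -0.12.

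Most anchors of keratin filaments had small fold changes. Hemidesmosomes and their laminin tie basal keratins to the basement membrane. Of 10 such genes 0 passed limma's test, against 1.79% of all genes tested, so this count says little. The median was -0.12, and 7 were negative, against 49.3%. Col17a1, Plec, Lamb3, Cd151 and Itga3 had both inhibitor values below both DMSO values, against 22.2% of all genes tested, and the others overlapped. Itgb4, the integrin that binds plectin, had 14065 and 16657 normalised reads in the inhibitor libraries and 15710 and 16090 in the DMSO libraries. Plec, the plectin that links keratins to that integrin, was the most abundant of the 10 (-0.17 ± 0.11, SE, adjusted p = 0.547). Lamb3, a chain of laminin 332, had 1089 and 960 normalised reads in the inhibitor libraries, against 2074 and 1324 in the DMSO libraries (-0.68 ± 0.21, SE, limma adjusted p = 0.147). Col17a1, the collagen of the hemidesmosome, had 84.1 and 207 normalised reads in the inhibitor libraries, against 257 and 262 in the DMSO libraries (-0.84 ± 0.43, SE, adjusted p = 0.420).

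Of 14 genes of desmosomes and keratin linkers, 12 were tested, 0 passed limma's test and 6 were negative, with a median of 0.0020. Over all genes tested 1.79% passed and 49.3% were negative, so a count of 0 in short lists says little. Eppk1, epiplakin, a plakin that binds keratin bundles, came nearest, with 14139 and 14011 normalised reads in the inhibitor libraries, against 11044 and 10056 in the DMSO libraries (0.42 ± 0.11, SE, adjusted p = 0.0707). Jup, plakoglobin of the desmosome, had 7223 and 7205 normalised reads in the inhibitor libraries, against 8585 and 9819 in the DMSO libraries (-0.35 ± 0.11, SE, adjusted p = 0.169). Of 12 genes of the squamous and cornified envelope, 4 were tested and 0 passed. Dmkn, the most abundant of them, had a log2 fold change of 0.12, and Sprr1a, a small envelope protein, had 21.02 and 25.2 normalised reads in the inhibitor libraries, against 93.6 and 37.7 in the DMSO libraries (adjusted p = 0.598). Of 7 other intermediate filament genes 0 passed, with a median of -0.078.

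In the rest of the keratin family, 45 other keratin symbols were listed, of which 8 were tested. Of these 0 passed, against 1.79% of all genes tested. Krt80, a type II chain and the most abundant of them, had 1771 and 2033 normalised reads in the inhibitor libraries and 1886 and 1734 in the DMSO libraries. Krt20, a type I chain known from gut and urothelium, had 126 and 114 normalised reads in the inhibitor libraries, against 50.7 and 48.6 in the DMSO libraries, with no overlap (0.95 ± 0.50, SE, limma adjusted p = 0.423). Krt23, a type I chain, had 436 and 255 normalised reads in the inhibitor libraries and 358 and 593 in the DMSO libraries (-0.44, adjusted p = 0.627). Of all 55 keratins listed, 25 were at 0 in every library.

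The 6 tested hillock genes that are not keratins had a median of -0.017, and 0 passed, against 1.79% of all genes tested. Anxa1, an annexin and the one of smallest p among them, had 14994 and 17627 normalised reads in the inhibitor libraries, against 12920 and 13020 in the DMSO libraries (0.33 ± 0.11, SE, limma adjusted p = 0.192). A list of alveolar cells in transition, a state known for high Krt8, had a median of -0.025 over 11 tested genes. Its 1 gene that passed was Clu, clusterin, which fell to 3712 and 2997 normalised reads in the inhibitor libraries, against 5499 and 4777 in the DMSO libraries (-0.62 ± 0.14, SE, limma adjusted p = 0.0423). Sfn, the 14-3-3 protein that binds keratins, differed by 0.027 on the log2 scale (limma adjusted p = 0.966) and was named after its value was seen.

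Markers of other cell types moved in the same libraries, and their part in the keratin values was not tested. Goblet cell markers were negative in 10 of 10 genes and 6 fell in limma's test (median -1.57), where 0.427% of all genes tested fell. Their summed values were 19194 and 37216 normalised reads in the inhibitor libraries, against 106600 and 81091 in the DMSO libraries. Club cell markers fell in 4 of 10 genes (median -0.42) and alveolar type 2 markers in 5 of 10 (median -0.54). Of the alveolar type 1 markers 8 were tested, 6 were negative (median -0.097) and 1 fell, the water channel Aqp5, at 1171 and 1243 normalised reads in the inhibitor libraries, against 2387 and 2029.6 in the DMSO libraries (-0.85 ± 0.16, SE, limma adjusted p = 0.0203). Ciliated cell markers had a median of 0.16 with 1 of 10 that rose, and pan-epithelial markers 0.11 with 0 of 8 that passed. Of the thymic epithelial list, Foxn1 and Aire were at 0 in all libraries. Its summed values were 1442 and 1377 normalised reads in the inhibitor libraries and 1448 and 1539 in the DMSO libraries. Most of these were of Ly75, at 1324 and 1334 in the inhibitor libraries and 1354 and 1448 in the DMSO libraries. Of the oesophageal list, Krt6a, Krt36, Sprr3 and Crnn were at 0. The sums were 963 and 670.3 in the inhibitor libraries and 851 and 1158 in the DMSO libraries. Calml3 held most of these, at 943 and 645 in the inhibitor libraries and 819 and 1136 in the DMSO libraries. Mesothelial markers summed to 1069 and 910 normalised reads in the inhibitor libraries and 1754 and 1281 in the DMSO libraries. Of the 6 tested mesothelial genes 5 were positive, and the median was 0.31. Msln, mesothelin, was the 1 that fell, at 233 and 596 in the inhibitor libraries, against 1388 and 997 in the DMSO libraries (-1.58 ± 0.34, SE, limma adjusted p = 0.0381), while the mesothelial factor Wt1 had 55.4 and 32.5 in the inhibitor libraries and was listed at 0 in both DMSO libraries. Smooth muscle and myoepithelial markers summed to 3973 and 3054 normalised reads in the inhibitor libraries and 1983 and 4682 in the DMSO libraries, fibroblast markers to 2489 and 2516 against 890 and 2155, endothelial markers to 2328 and 2911 against 2375 and 6068, and leukocyte markers to 623 and 259 against 156 and 693.

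The genes whose values ran most like those of Krt5 over the 4 libraries were found by the root mean square difference of log2 values, each centred on its own mean. Acy1, aminoacylase 1, was the closest at 0.107, followed by Clca3b at 0.109 and Cyp4a12b at 0.139, all genes of low counts. Aqp3 ranked 10, Krt4 22, Pdpn 24, Krt15 56 and Col17a1 66 among all genes tested other than Krt5. Further down, Ngfr ranked 217, Krt17 341, the simple keratin Krt19 1584 and Trp63 1668. For Krt8 the closest were Klhl7 at 0.0071, Jmy at 0.0118 and Zfp236 at 0.0126, and Krt18 ranked 2235. Krt5 and Krt15 ranked 13557 and 13731 by likeness to Krt8. With 4 libraries, many genes of a small range lie close to Krt8, so these ranks are descriptions alone.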

How the data were processed

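The deposited signal values, 1 table of 25124 gene symbols by 4 libraries, are read counts of each gene scaled by a library's size factor. Every value was a whole multiple of 1 step per library (100% within 0.01), and the inverse steps, 1.05 and 0.953 for inhibitor and 1.03 and 1.01 for DMSO libraries, equalled median-of-ratios size factors. The step of DMSO replicate 2, 0.991, is so near to a whole read that its recovered reads are less certain. HOMER, DESeq2 and mm10 are named in the submitters' processing notes without role or version; the aligner is not given in the sources used here. Per the labels' protocols, sorted cells were lysed in TRIzol and a directional kit was used for the libraries.

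Genes with a mean of at least 25.8 normalised reads (1 CPM) were kept (13810), and log2(value + 25.8) was fitted in limma 3.58.1 (R 4.3.3) with an intensity trend, on group alone, with Benjamini-Hochberg adjustment over all genes tested. Counting error at the floor is 19.7%. Alternatives were other pseudocounts, floors and scalings, no trend, the replicate block, edgeR 4.0.16 and DESeq2 1.42.0 on recovered reads and each library left out; the scripts were tested on simulated data. Lengths and coordinates came from GENCODE M21 (GRCm38, which is mm10). The keratins and gene lists were chosen with earlier results of these data known. Named besides the 10 keratins were, of each list, genes that passed, the 2 of smallest p or the most abundant, and the 3 genes closest in pattern to Krt5 and to Krt8; other list genes were named after their values were seen. Tables and figures were made with Python 3.11.15, pandas 2.3.3 and matplotlib 3.10.9.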

Additional observations from a re-analysis of the deposited data

How the results depend on the processing

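The counts of genes called depended on the model. Against 188 higher and 59 lower, there were 51 and 13 with no floor, 107 and 35 with upper-quartile scaling, 0 and 0 without the intensity trend (1423 genes at an unadjusted p under 0.05), 33 and 9 with edgeR and 378 and 170 with DESeq2. Without 1 library they ran from 22 to 659 higher and from 19 to 204 lower. With the replicate number as a block they were 469 and 205, and 3 keratins passed: Krt4 (adjusted p = 0.0327), Krt5 (0.000244) and Krt15 (1.6e-08). The labels do not say whether equal replicate numbers share a batch, and the replicate differences of the groups correlated at 0.0734 over genes. In Krt15 the replicate gaps ran in opposite directions, -1.90 in the inhibitor pair and 0.22 in the DMSO pair. Those of Krt5 (-1.13 and 0.86) and of Krt4 (-0.80 and 0.87) did so too. The cause of the small p values in the block fit was not tested. DESeq2 called 1 keratin (3.97% of all genes). Fits without 1 library called 0 to 2 keratins, with 0.391% of all genes called without inhibitor replicate 1, 0.296% without inhibitor replicate 2, 6.23% without DMSO replicate 1 and 2.6% without DMSO replicate 2; in such a fit the lone sample is assumed to vary like the other group. Krt17 ran from -1.63 to 0.070, changing sign without DMSO replicate 1. The basal and hillock median ran from -1.62 to -0.64 and the simple median from -0.11 to -0.0018 without 1 library. The cause of these moves was not tested. The basal and hillock median was not computed in edgeR or DESeq2, where Krt13 and Krt14 were not fitted. In all other fits that gave an adjusted p the 8 tested keratins kept their sign. Krt4 and Krt17 had no adjusted p with a floor 5 times as high or in DESeq2, so their sign was not compared there. Depth limits Krt4, Krt13, Krt14 and Krt17, at 0 to 286 reads per library.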
